A study of Mus musculus with 2 samples.

Results

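Natural killer (NK) cells were found in the single-cell RNA-seq of cells sorted from mouse tumors, and 228 of the 16123 cells that passed the quality filters were NK cells. A cell was counted as an NK cell when it had at least 1 UMI (unique molecular identifier, 1 captured transcript) of *Ptprc*, the gene of CD45, and at least 1 UMI each of 2 or more of *Ncr1*, *Klrb1c*, *Klre1*, *Eomes* and *Gzma*. It also had at least 500 detected genes, at most 10% mitochondrial UMIs and no UMI of the T cell genes *Cd3e* and *Cd3g*, the B cell gene *Cd79a* or the macrophage gene *C1qa*. The cells were thus selected on their UMIs of these genes, whose levels in NK cells are a description and not a result. The control library held 56 NK cells and the Dnmt1iECKO library held 172.

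The genotype label of the control is C57BL/6 and that of the Dnmt1iECKO is Cdh5CreERT2;Dnmt1fl/fl;ZsGreenlsl/lsl, a model in which tamoxifen deletes *Dnmt1*, the maintenance DNA methyltransferase, in cells with an active *Cdh5* promoter. Control mice, as the methods of the study give them, carried the same Cre and the ZsGreen reporter without the floxed *Dnmt1* alleles, which the label of the control does not say. The *Cdh5* promoter is active in endothelial cells of all organs, and NK cells are not its target. Mice of both groups were female and 8 to 10 weeks old, and each library pooled the tumors of 3 mice according to the methods, so there was 1 library per condition and no replicate. The labels describe YUMMER1.7 melanoma cells injected under the skin of the shoulder, whereas the methods of the study describe tumors in the lung after injection into the tail vein. NK cells carried 20 UMIs (control) and 124 UMIs (Dnmt1iECKO) of *Sftpc*, the surfactant gene of lung alveolar cells. Of 7 melanocyte genes, *Mlana*, *Dct*, *Tyrp1* and *Sox10* had no UMI in them, although the labels call the sorted cells melanoma cells. The list had 17 UMIs in control and 19 in Dnmt1iECKO NK cells, of which 16 and 18 were of *Mitf*, a factor that other cells also express. Live CD31+CD45- cells were sorted, so CD45+ NK cells were among the cells that the gate was set to remove, and the number that remained depends on the gate as well as on the tumor.

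NK cells are innate lymphocytes that kill infected or malignant cells by releasing granules of perforin and granzymes, without the rearranged antigen receptors of T and B cells. Their activity is set by the balance of activating receptors, such as NKp46 (*Ncr1*) and NKG2D (*Klrk1*), and inhibitory receptors for MHC class I, which in the mouse are mainly the Ly49 lectins encoded by the *Klra* genes. Each NK cell expresses its own combination of Ly49 receptors, and the cells mature from CD27+ to CD11b+ (*Itgam*) KLRG1+ stages. The transcription factors T-bet (*Tbx21*) and EOMES direct this maturation, and both bind T-box motifs, while RUNX factors act on many NK and T cell genes.

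The 5 genes of the rule lie on 4 chromosomes of the mouse genome (GRCm38). *Ncr1* lies at chr7:4337724-4345164 on the plus strand, *Klrb1c* (NK1.1) at chr6:128778485-128789215 on the minus strand and *Klre1* at chr6:129577905-129585827 on the plus strand. *Eomes* lies at chr9:118478212-118486132 on the plus strand and *Gzma* at chr13:113093825-113100981 on the minus strand. *Klrb1c* overlaps the gene model Gm44511 on the same strand. Of the Ly49 genes, 10 lie on the minus strand within chr6:129831154-130386874, a stretch of 556 kb on the chromosome that also carries *Klrb1c* and *Klre1*. The start regions of 3 genes of the rule and of the perforin gene *Prf1* are shown because these transcripts define the cells and their killing machinery. Each runs from 250 bases before to 50 bases after the start of the gene in RefSeq (GRCm38.p6). Capitals mark matches to the T-box letters AGGTGT, which read on the other strand as ACACCT. They also mark the Runx letters TGTGGT, which read on the other strand as ACCACA, and no match of one overlaps the other.
Ncr1, chr7:4337465-4337764, strand plus: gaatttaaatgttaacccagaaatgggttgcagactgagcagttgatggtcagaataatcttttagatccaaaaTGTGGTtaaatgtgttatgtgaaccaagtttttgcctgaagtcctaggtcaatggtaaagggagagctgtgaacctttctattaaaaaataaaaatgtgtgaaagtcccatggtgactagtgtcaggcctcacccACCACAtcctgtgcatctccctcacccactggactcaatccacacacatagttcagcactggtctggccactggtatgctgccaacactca
Klrb1c, chr6:128788592-128788891, strand minus: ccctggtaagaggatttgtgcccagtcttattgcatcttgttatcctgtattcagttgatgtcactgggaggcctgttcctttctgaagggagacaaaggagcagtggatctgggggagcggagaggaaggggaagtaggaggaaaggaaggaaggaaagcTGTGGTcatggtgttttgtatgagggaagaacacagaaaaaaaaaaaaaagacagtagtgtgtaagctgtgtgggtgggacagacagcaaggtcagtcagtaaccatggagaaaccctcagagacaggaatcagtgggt
Gzma, chr13:113100932-113101231, strand minus: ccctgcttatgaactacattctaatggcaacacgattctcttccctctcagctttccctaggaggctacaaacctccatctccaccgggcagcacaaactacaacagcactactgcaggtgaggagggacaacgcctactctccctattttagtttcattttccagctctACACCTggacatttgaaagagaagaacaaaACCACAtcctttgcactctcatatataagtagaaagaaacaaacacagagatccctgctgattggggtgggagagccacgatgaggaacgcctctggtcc
Prf1, chr10:61297586-61297885, strand plus: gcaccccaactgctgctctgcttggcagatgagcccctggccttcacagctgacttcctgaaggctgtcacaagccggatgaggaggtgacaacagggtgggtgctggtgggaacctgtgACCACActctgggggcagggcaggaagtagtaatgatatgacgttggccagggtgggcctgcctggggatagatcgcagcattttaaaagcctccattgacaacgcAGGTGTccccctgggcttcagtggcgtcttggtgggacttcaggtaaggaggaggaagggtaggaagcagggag
The Runx letters were present in the start regions of 5 of 16 genes searched, which were *Ncr1* (at 2 places), *Klrb1c*, *Klre1*, *Gzma* and *Klra1*, and the 16 were the rule and Ly49 genes. They occur in 16.9% of the 27025 start regions in the table. The T-box letters were present in 1 of these 16 genes (*Gzma*) and in 13.9% of all start regions. *Prf1* held both motifs. These matches are letters in a window and were not measured as bound sites.

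In the whole series the control file held 9301 cells with 123830489 UMIs and the Dnmt1iECKO file held 9522 cells with 141433493 UMIs, with a median of 8904 and 8762 UMIs per cell. NK cells had a median of 6706 UMIs (range 1393 to 71931) in the control and 6574 UMIs (range 749 to 92399) in the Dnmt1iECKO library, and a median of 2608 and 2615.5 detected genes. The libraries shared 29 cell barcodes, of which 1 belonged to an NK cell. The libraries differed in makeup, since cells with a *Ptprc* UMI were 18.3% of the control and 58.4% of the Dnmt1iECKO cells, and 10 control and 311 Dnmt1iECKO cells carried the thymocyte genes *Rag1*, *Dntt* or *Ptcra*. No NK cell carried a UMI of *Rag1*, *Rag2*, *Dntt* or *Ptcra*.

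NK cells were a larger share of all sorted cells in the Dnmt1iECKO library. They made up 0.698% of the control cells (exact Clopper-Pearson 95% interval 0.528 to 0.906%, 56 of 8021) and 2.12% of the Dnmt1iECKO cells (1.82 to 2.46%, 172 of 8102). The share was 3.04-fold higher in the Dnmt1iECKO library (interval 2.24 to 4.19), and the interval covers counting error only. Cells with *Ptprc* as a whole were 3.19-fold more frequent (3.01 to 3.39). Among cells with *Ptprc* the NK share was 3.82% (2.90 to 4.93%) in the control and 3.64% (3.12 to 4.21%) in the Dnmt1iECKO library, a ratio of 0.952 (0.70 to 1.31). Without the cells carrying thymocyte genes, these shares were 3.85% and 3.89%. Of NK and T cells together, NK cells were 12.4% in the control and 9.70% in the Dnmt1iECKO library, a log2 ratio of -0.36 with an interval from -0.80 to 0.10. Thus the larger NK share of all cells accompanied a larger share of all CD45-expressing cells, and a difference of NK cells among them was not detectable at this depth. Whether the tumor or the sort set these shares cannot be told apart with 1 library per condition.

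**Figure D1:**
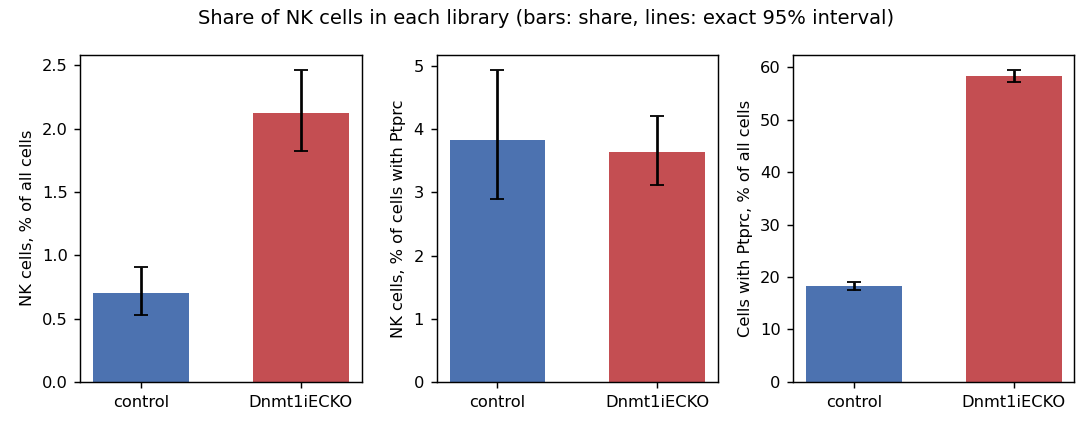
Share of NK cells among all cells, share of NK cells among cells with a *Ptprc* UMI, and share of cells with *Ptprc* among all cells, in percent, for the control and the Dnmt1iECKO library. Bars show the share and lines the exact 95% interval. The NK share of all cells was 0.698% and 2.12%, whereas the intervals of the NK share of *Ptprc* cells overlapped.

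At least 4 of the 5 markers were detected in most NK cells of either library. All 5 had a UMI in 28 of the 56 control and 103 of the 172 Dnmt1iECKO NK cells, and 4 of the 5 in 18 and 32 cells. *Gzma*, the granzyme with trypsin-like activity, was by far the most abundant, with 4205 UMIs in the control (54 of 56 cells, median 71 per cell, highest 181) and 10213 in the Dnmt1iECKO library (162 of 172 cells, median 58.5, highest 347). This was 6986 CPM (UMIs scaled to a total of 1000000 over the NK cells of a library) in control and 6567 CPM in the Dnmt1iECKO library, against 142 and 216 CPM in T cells and 0.159 and 1.34 CPM in endothelial cells. *Ncr1*, the NK receptor NKp46, had a median of 2 and 2.5 UMIs per cell and was at 276 and 350 CPM, against 4.13 and 2.65 CPM in T cells. *Klrb1c* had a median of 4 and 3 UMIs per cell (407 and 399 CPM) and *Klre1*, a lectin-like receptor, a median of 6 and 5 UMIs (610 and 595 CPM). *Eomes*, the T-box factor that separates NK cells from type 1 innate lymphoid cells, was found in 37 of 56 and 125 of 172 cells at 272 and 325 CPM. Over the 5 genes the log2 ratio of the Dnmt1iECKO to the control library ran from -0.09 (*Gzma*) to 0.34 (*Ncr1*).

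**Figure D2:**
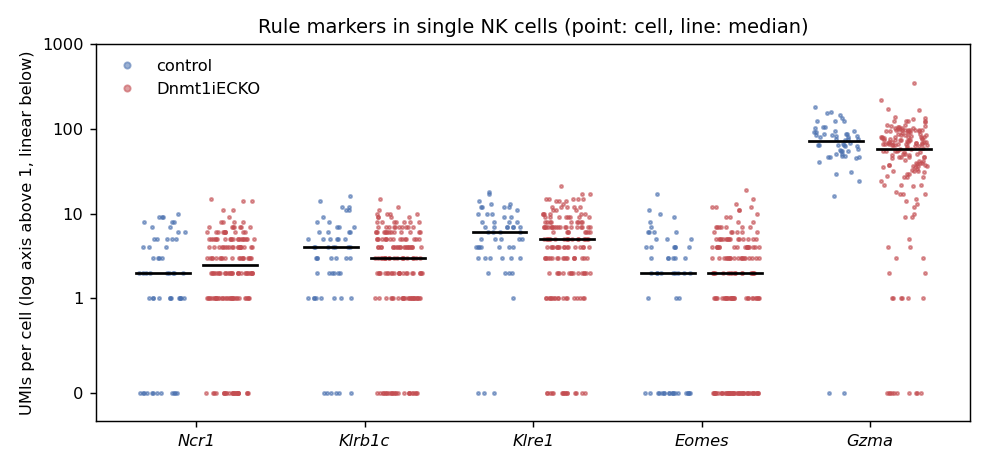
UMIs per NK cell of the 5 genes of the rule on an axis that is logarithmic above 1 and linear below, for the control and the Dnmt1iECKO library. Each point is a cell and each line a median. *Gzma* stands apart with medians of 71 and 58.5 UMIs, and the other markers have medians from 2 to 6.

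Cells at the threshold of the rule differed from the rest of the NK cells. With exactly 2 markers, 4 control and 16 Dnmt1iECKO cells were just inside the rule, and their level of the cytotoxic granule gene *Nkg7* was 386 and 174 CPM. Just outside it, 29 control and 82 Dnmt1iECKO cells had exactly 1 marker, and they held *Nkg7* at 35.8 and 0 CPM. Cells with all 5 markers held *Nkg7* at 2827 and 2369 CPM. The cells just outside were deep, with a median of 29711 and 25398 UMIs, and 25 of 29 and 71 of 82 of them carried at least 20 UMIs of endothelial or MHC class II genes.

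A small number of NK cells held many transcripts of other cell types. At least 20 UMIs of 10 endothelial genes, such as *Pecam1* and *Cdh5*, or of the MHC class II genes *H2-Aa*, *H2-Ab1*, *H2-Eb1* and *Cd74* were found in 6 control and 15 Dnmt1iECKO NK cells. These cells were deep, with a median of 37284 and 28325 UMIs, and they held 40.8% and 33.4% of all UMIs of the NK cells. The endothelial genes were high in 4 control and 7 Dnmt1iECKO cells, in which *Cdh5*, the cadherin of endothelial junctions, reached 1160 and 1331 CPM beside *Gzma* at 2419 and 1071 CPM. Of the 8 Dnmt1iECKO cells high in class II genes alone, 7 had only 2 markers and 5 had no *Gzma*. Their *Cd74*, the class II invariant chain, was at 14038 CPM and *Ccr7*, a chemokine receptor of migratory dendritic cells, at 819 CPM. Doublet scores called 4 control and 8 Dnmt1iECKO NK cells, of which 3 and 4 were among these cells. Values of many of the gene lists and of part of the named genes are therefore given also without these 21 cells, on 50 control and 157 Dnmt1iECKO NK cells, a choice made after the values were seen. These 207 cells are called the reduced set.

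**Figure D3:**
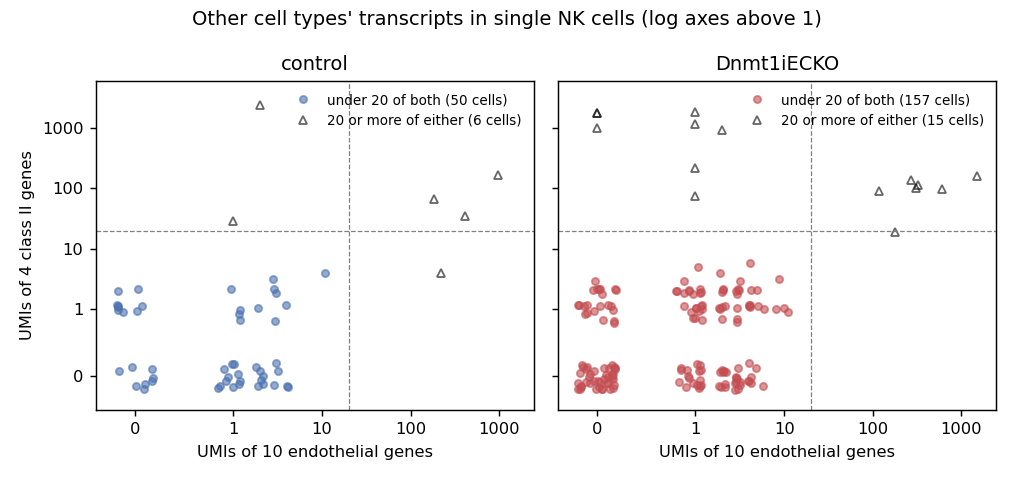
UMIs of 10 endothelial genes (horizontal) and of 4 MHC class II genes (vertical) in each NK cell, with axes that are logarithmic above 1, for the control (left) and the Dnmt1iECKO library (right). Dashed lines mark 20 UMIs. Triangles are the 6 control and 15 Dnmt1iECKO cells at 20 or more of either, and points are the 50 and 157 cells of the reduced set.

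Genes of other cell types were counted in the NK cells, leaving aside *Cd3e*, *Cd3g*, *Cd79a* and *C1qa*, which the rule fixed at 0. The list of 12 T cell genes, with *Cd3e* and *Cd3g* among them, had 211 UMIs in 48 of 56 control and 720 UMIs in 142 of 172 Dnmt1iECKO NK cells. *Cd4* had no UMI in either library, and *Cd3d* and *Cd8b1* had none in the control and 10 and 8 UMIs in the Dnmt1iECKO library. *Cd28*, a costimulatory receptor, had 18 and 144 UMIs. The constant regions *Trbc1* and *Trbc2* of the T cell receptor, which NK cells can transcribe without rearrangement, carried most of the T cell list, with 113 and 309 UMIs of *Trbc1*. Of 6 γδ T cell genes 3 were detected, with 23 UMIs in 16 control and 115 UMIs in 77 Dnmt1iECKO NK cells. The constant region *Trdc* carried 12 and 57 of these UMIs and *Trdv4* 6 and 41, while *Tcrg-C1*, *Tcrg-C2* and *Trgv2* had none. The 8 B cell genes had 40 UMIs in 16 control and 189 UMIs in 97 Dnmt1iECKO NK cells, nearly all of the immunoglobulin genes *Igkc* (22 and 135) and *Ighm* (16 and 50), while *Ms4a1* and *Pax5* had none. All 6 basophil and mast cell genes were at 0. Of 9 genes of other innate lymphoid cells, with 27 and 74 UMIs in all, the cytokine genes *Il13*, *Il5*, *Il22* and *Il17a* had none. Myeloid genes had 17 UMIs in the control and 1462 in the Dnmt1iECKO NK cells, of which 88.0% lay in 1 cell, and the reduced set held 6 and 47 UMIs of them. Endothelial genes had 1870 and 3520 UMIs in all NK cells and 73 and 238 in the reduced set. Their part in the results on each gene was not tested.

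Set against T cells, the lymphocytes most like them, NK cells of both libraries shared a set of transcripts that the rule did not use. Of 4186 genes with at least 100 UMIs in NK cells, 85 (2.03%) were at least 4-fold higher than in the T cells of both libraries. The 5 genes of the rule pass both limits and are in this count, so it is not a count of genes outside the rule. None of the 5 is among the 12 genes named here. The highest ratio belonged to *Serpinb9b*, a granzyme inhibitor, at 261 CPM in control and 248 CPM in Dnmt1iECKO NK cells and at 0.206 and 0.51 CPM in T cells. *Cma1*, a chymase that mouse NK cells express, was at 241 and 221 CPM, and at 1.24 and 0.459 CPM in T cells. The Ly49 genes *Klra8*, *Klra9* and *Klra4* and the lectin gene *Klrb1b* were among the 12 highest. *Irf8*, an interferon regulatory factor, was the most abundant of these 12 genes, at 1919 and 2083 CPM against 43.7 and 55.2 CPM in T cells. A UMI of *Irf8* remained in 94.4% and 90.2% of NK cells after each cell was thinned to 2000 UMIs, and in 6.46% and 5.69% of T cells. Also among the 12 were *Phactr3*, *D5Ertd615e*, *Kcnip3*, *Adamts14* and *Eya1*, whose smaller log2 ratio of the 2 libraries ran from 5.25 to 6.65.

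Between the libraries, most NK genes differed little. Among 7883 genes with at least 30 UMIs over the NK cells, 363 (4.6%) were at least 2-fold higher and 334 (4.24%) at least 2-fold lower in the Dnmt1iECKO library. In the reduced set 218 of 5936 genes (3.67%) were higher and 135 (2.27%) lower by that size. The median log2 ratio over all genes was -0.05, and scaling by median-of-ratios size factors would raise every log2 ratio by 0.10, which gave 437 genes higher and 255 lower by that size in all NK cells. These shares are the background for the counts of each list. There is no test of these ratios, because cells of 1 library are not replicates.

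Genes of the cytotoxic granule differed by less than 2-fold between the libraries, and single members lay on either side of 0. Of 16 measured genes none was 2-fold higher or lower, which is near the background of 4.6% and 4.24% of all genes and is no result about the list. The rule gene *Gzma*, which had a part in choosing the cells, is among the 16. The median log2 ratio was 0.08 in all NK cells and -0.04 in the reduced set. *Nkg7*, a granule membrane protein, was at 1864 CPM in control and 1829 CPM in Dnmt1iECKO NK cells. Perforin (*Prf1*) was at 1666 and 1476 CPM, a log2 ratio of -0.18 (interval -0.28 to -0.07). Granzyme B (*Gzmb*) was at 1552 and 1231 CPM, a log2 ratio of -0.33 (-0.45 to -0.22) and of -0.45 in the reduced set. *Fasl*, the death ligand, was at 299 and 347 CPM. *Serpinb6b*, an inhibitor of granzymes, had the highest ratio of the list, at 459 and 702 CPM (log2 0.61, interval 0.42 to 0.81, reduced set 0.58).

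Of the activating receptors, 18 genes were measured and none differed by 2-fold in all NK cells (background 4.6% higher and 4.24% lower, median log2 0.11). The rule genes *Ncr1*, *Klrb1c* and *Klre1* are among these 18, so the count and the median rest in part on genes that chose the cells. *Klrk1* (NKG2D), a receptor for stress ligands, was at 464 CPM in control and 638 CPM in Dnmt1iECKO NK cells, a log2 ratio of 0.46 (0.27 to 0.66). *Klrd1* (CD94), the partner of the NKG2 receptors, was at 472 and 673 CPM (0.51, interval 0.32 to 0.71). *Klrb1a*, an NKR-P1 family lectin, was at 201 and 340 CPM (0.76, interval 0.47 to 1.06). All 3 stayed above the control in the reduced set, with log2 ratios of 0.38, 0.45 and 0.68. Of 13 adaptor genes none differed by 2-fold, again near the 4.6% and 4.24% of all genes, and *Tyrobp* (DAP12), the adaptor of activating Ly49 receptors, was at 974 and 1265 CPM (0.38, reduced set 0.12). Inhibitory receptors numbered 15 measured genes, with 1 at least 2-fold higher and 2 at least 2-fold lower, against 4.6% and 4.24% of all genes, and in the reduced set none of 13 differed by this size (background 3.67% and 2.27%). *Klrb1b*, the receptor for the lectin CLR-B, was at 562 and 819 CPM (0.54, interval 0.37 to 0.72) and *Klrg1*, a cadherin receptor of mature NK cells, at 214 and 174 CPM (-0.30, interval -0.61 to 0.01). The checkpoint gene *Pdcd1* had no UMI in NK cells of either library, which allows up to 3 UMIs, and it was at 259 and 185 CPM in T cells.

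The Ly49 receptors were carried in varied combinations. After thinning to 2000 UMIs, at least 1 of 11 Ly49 genes was detected in 49 of 54 control NK cells (90.7%, interval 79.7 to 96.9%) and in 128 of 164 Dnmt1iECKO NK cells (78.0%, 70.9 to 84.1%). Endothelial cells, which should lack Ly49, showed 0.34% and 0.395% at the same depth, and T cells 6.98% and 6.96%. At full depth the median NK cell held 3 Ly49 genes in either library, and the highest number was 7 in the control and 8 in the Dnmt1iECKO library. *Klra4* (Ly49D), an activating member, was the most abundant at 661 and 703 CPM. *Klra7* (Ly49G) was at 326 and 334 CPM, *Klra1* (Ly49A) at 236 and 289 CPM and *Klra8* (Ly49H), an activating receptor, at 73.1 and 75.2 CPM.

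*Klra9* (Ly49I), an inhibitory member at chr6:130178675-130193112, was lower in the Dnmt1iECKO library. It was at 311 CPM in the control (187 UMIs) and 158 CPM in the Dnmt1iECKO NK cells (245 UMIs), a log2 ratio of -0.98 with an interval from -1.26 to -0.70, and of -0.86 in the reduced set. The share of thinned NK cells with a UMI of *Klra9* was 51.9% (37.8 to 65.7%) in the control and 25.0% (18.6 to 32.4%) in the Dnmt1iECKO library, against 1 of 5000 control and 0 of 2027 Dnmt1iECKO endothelial cells. Its neighbours on the chromosome, *Klra8* and *Klra7*, both had a log2 ratio of 0.04. *Klra5* was also lower, at 84.7 and 32.8 CPM, but rested on 6 control and 11 Dnmt1iECKO cells, and its log2 ratio moved from -1.37 to -0.77 in the reduced set. Ly49 genes are near copies of each other, and 69.8% of the 31-base words in the last 500 bases of *Klra9* occur in another Ly49 gene, most often in *Klra3*. The counts of *Klra9*, *Klra3* and *Klra8* may therefore be divided unevenly among them, whereas for *Klra4*, *Klra7* and *Klra1* the shared words were 13.8%, 5.32% and 9.57%. *Klra3* itself was at 54.8 and 50.2 CPM.

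Among cytokines and chemokines, *Ccl5* was the most abundant, at 8535 CPM in control and 8662 CPM in Dnmt1iECKO NK cells. Of the 11 measured members of this list 4 were at least 2-fold higher and none lower (background 4.6% and 4.24%), and in the reduced set 2 of 8 (background 3.67%). *Xcl1*, the chemokine that NK cells use to attract cross-presenting dendritic cells, was at 84.7 and 242 CPM, a log2 ratio of 1.51 (1.09 to 1.96) and of 1.91 (1.39 to 2.47) in the reduced set. The share of NK cells with its transcript did not follow, at 15 of 56 and 48 of 172 cells, or 16.7% and 18.3% after thinning, so the higher level lay in more UMIs per positive cell. *Ccl4*, an inflammatory chemokine, was at 812 and 1076 CPM (0.41, interval 0.26 to 0.55). Interferon gamma (*Ifng*) was at 89.7 and 111 CPM (0.30, interval -0.15 to 0.77), found in 13 and 54 cells. A difference in *Ifng* was not detectable at this depth.

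Cytokine receptors and transcription factors of NK cells were present in both libraries. *Il2rb*, the shared receptor chain of IL-2 and IL-15, was at 643 and 655 CPM, and *Il12rb2*, a chain of the IL-12 receptor, at 844 and 1022 CPM. *Il18r1*, which receives IL-18, was at 279 and 428 CPM (0.62, interval 0.37 to 0.87). Of 15 measured receptors 1 was at least 2-fold higher and 1 lower, near the background of 4.6% and 4.24%. *Tbx21* (T-bet) was at 299 and 348 CPM (0.22, interval -0.03 to 0.47). Of 19 transcription factors, the rule gene *Eomes* among them, 2 were at least 2-fold higher (background 4.6%), and both were more abundant in T cells. *Ikzf2* (Helios) was at 36.6 and 90.7 CPM (1.31, interval 0.66 to 2.03), in 9 of 56 and 32 of 172 NK cells. *Maf* was at 21.6 and 47.6 CPM (1.14, interval 0.28 to 2.11). In T cells *Ikzf2* was at 421 and 510 CPM.

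Genes of early and late NK cell stages were compared next. Of 11 measured early genes 5 were at least 2-fold higher and none lower, against 4.6% and 4.24% of all genes, with a median log2 ratio of 0.39. That median was 0.20 when cells with *Cd3d*, *Trac*, *Cd4*, *Cd8a* or *Cd8b1* were also left out, 0.84 with markers read after thinning and 1.74 without dividing cells. In the reduced set all 10 measured were above 0, with a median of 0.70, and the 3 at least 2-fold higher (background 3.67%) were *Cd27*, *Xcl1* and *Kit*. *Kit*, the stem cell factor receptor, had 0 control and 33 Dnmt1iECKO UMIs there and was entered with 3 UMIs in place of 0. *Cd27*, the TNF receptor family member of immature NK cells, was at 11.6 and 43.1 CPM (1.89, interval 0.77 to 3.26). Its control level was near that of endothelial cells, at 10.2 and 11.8 CPM, and a *Cd27* UMI was found in 8.93% and 16.9% of NK cells against 11.5% and 14.6% of endothelial cells. Thinned to 2000 UMIs these shares were 1.85% and 7.32% of NK and 2.14% and 2.96% of endothelial cells, and thinned to 1000 UMIs 3.57% and 2.34% of NK cells, so no difference in the share of *Cd27* cells was read. *Emb* (embigin) was at 131 and 264 CPM (1.01, interval 0.66 to 1.38), in 6 and 42 cells, and 62.0% of its control UMIs lay in 1 cell. *Ltb*, the lymphotoxin subunit, had 6 UMIs in the control and 32 in the Dnmt1iECKO cells (1.05, interval -0.23 to 2.59). *Il7r*, the IL-7 receptor, was found in 1 control and 14 Dnmt1iECKO cells, and its log2 ratio moved from 1.89 to 0.18 in the reduced set. Several early genes are also T cell genes, and *Cd27* was at 184 and 259 CPM and *Ltb* at 247 and 183 CPM in T cells. The T cell list lay on the same side of 0, with a median log2 ratio of 0.51 over its 4 measured genes (0.68 in the reduced set), and the 2 measured γδ T cell genes had a median of 1.14 (1.16). The part of such transcripts in the early genes was not tested.

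Of the 12 late genes none differed by 2-fold, near the background of 4.6% and 4.24%. The median log2 ratio was -0.17, and in the reduced set 1 of 12 was above 0 with a median of -0.25. *Itgam* (CD11b), an integrin of mature NK cells, was at 316 CPM in control and 309 CPM in Dnmt1iECKO cells. *S1pr5*, the receptor that lets mature NK cells leave lymphoid organs, was at 101 and 76.5 CPM (-0.41, interval -0.86 to 0.06) and *Cx3cr1*, the fractalkine receptor, at 98.0 and 78.5 CPM (-0.32, interval -0.78 to 0.15). At least 2 of the 6 genes *Klrg1*, *S1pr5*, *Zeb2*, *Cma1*, *Itgam* and *Cx3cr1* were detected in 75.9% (62.4 to 86.5%) of thinned control and 61.6% (53.7 to 69.1%) of thinned Dnmt1iECKO NK cells. The log2 ratio of these shares was -0.30 with an interval from -0.84 to 0.26. This interval treats the numbers of cells as Poisson counts, which is too wide for shares this large. Whether the difference exceeded counting error was therefore not read from it. This is a range along a count of genes and not a cell type, since 9 control and 38 Dnmt1iECKO cells had exactly 1 of the 6 and 15 and 37 had exactly 2. Genes of type 1 innate lymphoid cells set off few cells, with at least 2 of 6 in 7.41% and 4.88% of thinned NK cells and 2.08% and 2.01% in the reduced set. Endothelial cells reached 60.4% and 60.6% on these 6 genes, and *Itga1* alone was found in 77.2% and 77.5% of them after thinning. The share was therefore not read as that of type 1 innate lymphoid cells. Of 14 measured genes of these cells and of tissue residency, 2 were at least 2-fold higher and 1 lower (background 4.6% and 4.24%). In the reduced set 2 of 9 were higher and none lower (background 3.67% and 2.27%), and the median log2 ratio was 0.42 in both sets.

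**Figure D4:**
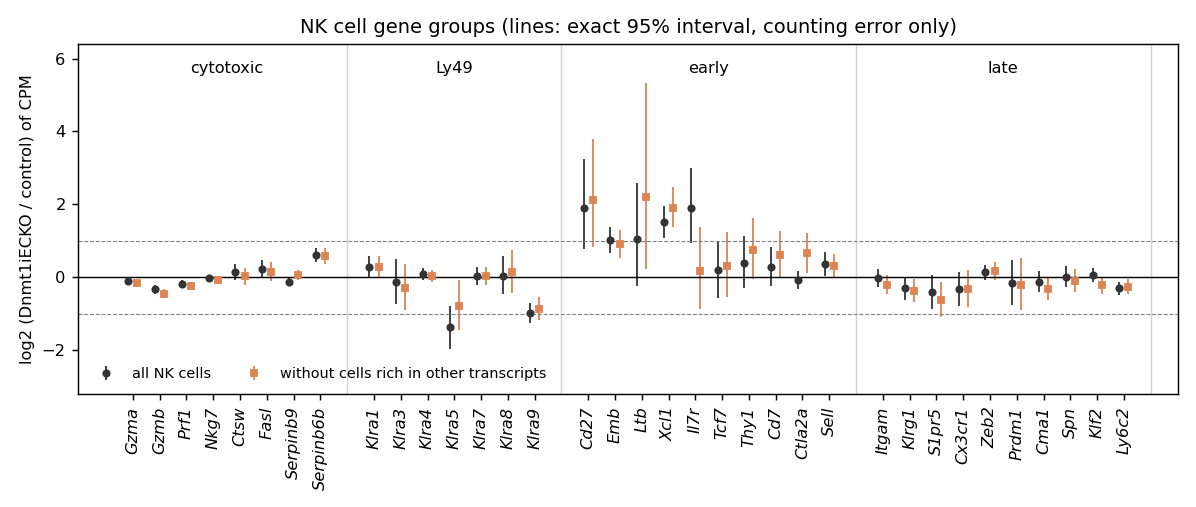
Log2 ratio of CPM in NK cells, Dnmt1iECKO over control, for genes of the cytotoxic, Ly49, early and late groups. Circles show all 56 and 172 NK cells, squares the reduced set of 50 and 157 cells, lines the exact 95% interval of counting error and dashed lines a 2-fold difference. Cytotoxic and late genes lie near 0, *Klra9* and *Klra5* lie below it, and *Cd27*, *Xcl1* and *Emb* lie above it.

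NK cells without a detected Ly49 receptor differed from those with one inside the Dnmt1iECKO library. In the reduced set thinned to 2000 UMIs, 26 Dnmt1iECKO cells had no Ly49 UMI and 123 had at least 1, at a median depth of 6460.5 and 6489 UMIs. Without Ly49 means here without a Ly49 UMI after thinning, while the levels compared are from all UMIs of the cells. At full depth only 14 of the 157 Dnmt1iECKO cells of the reduced set had no Ly49 UMI. Some of the 26 cells therefore carried Ly49 transcripts. Since both kinds of cell came from 1 library, their values are a description. *Emb* was at 1448 CPM in cells without and 127 CPM in cells with Ly49, a log2 ratio of 3.51 (3.18 to 3.84). *Ikzf2* was at 502 and 47.6 CPM (3.40), *Tcf7*, a factor of early lymphocytes, at 167 and 27.4 CPM (2.61), and *Ltb* at 135 and 2.38 CPM (5.83). *Cd27* was at 146 and 42.8 CPM (1.77) and *Xcl1* at 881 and 234 CPM (1.91). *Itga1* (CD49a), a gene of type 1 innate lymphoid cells, was at 199.9 and 46.4 CPM (2.11), in 12 of 26 and 12 of 123 cells. Endothelial cells carry *Itga1* as well, in 77.5% of those of the Dnmt1iECKO library after thinning. *Cxcr6*, a chemokine receptor of tissue-resident lymphocytes, had 6 UMIs in the cells without and 0 in those with Ly49, and 8, all in 1 cell, and 0 in the control. The cells without Ly49 were not assigned to an NK cell stage or to another cell type.

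Cytotoxic and late genes outside the rule lay the other way. In the cells without Ly49, *Gzmb* was at 854 CPM against 1973 CPM in those with Ly49 (log2 -1.21) and *Prf1* at 1075 against 2356 CPM (-1.13). *Itgam* was at 146 against 489 CPM (-1.75) and *S1pr5* at 32.4 against 125 CPM (-1.95). The rule genes *Gzma* (4430 against 10631 CPM) and *Eomes* (243 against 503 CPM) had a part in choosing the cells, so their levels are given without being counted with these. Some T cell transcripts were also more frequent in the cells without Ly49, with 8 UMIs of *Cd3d* against 2, and 7 of *Cd8b1* against 1. In a stricter set of 18 and 100 cells, with at least 3 markers and no UMI of *Cd3d*, *Trac*, *Cd4*, *Cd8a* or *Cd8b1*, the directions of the following genes held. There *Emb* had a log2 ratio of 3.38, *Cd27* of 3.14, *Itga1* of 2.85, *Gzmb* of -0.80 and *Itgam* of -1.58. The control library held only 4 such cells without Ly49 against 44 with Ly49. Of 69 control *Emb* UMIs in these cells, 49 lay in 1 of the 4 cells, and in the stricter control set the 2 cells without Ly49 had no UMI of *Emb* or *Cd27*. *Gzmb* was at 902 against 2597 CPM (-1.52) and *Itgam* at 150 against 542 CPM (-1.85) in these control cells. The late genes *S1pr5* (201 against 163 CPM, 0.30), *Klrg1* (0.74) and *Zeb2* (0.51) had log2 ratios above 0 there. Cells with a Ly49 UMI were 91.7% (80.0 to 97.7%) of the thinned reduced set in the control and 82.6% (75.5 to 88.3%) in the Dnmt1iECKO library. A difference between these shares was not tested.

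**Figure D5:**
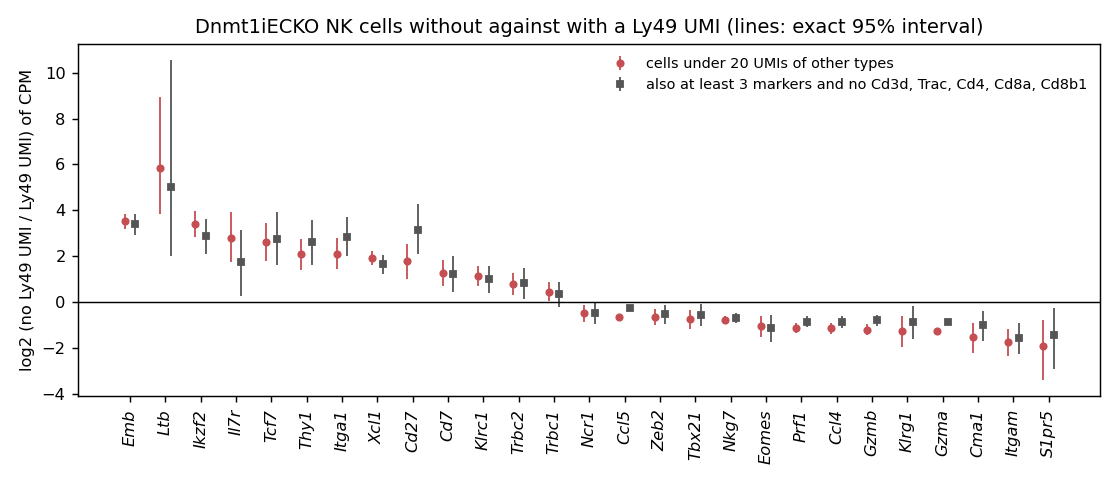
Log2 ratio of CPM in Dnmt1iECKO NK cells without against with a Ly49 UMI after thinning to 2000 UMIs, with exact 95% intervals of counting error. Circles show 26 and 123 cells of the reduced set and squares the stricter 18 and 100 cells. *Emb*, *Ikzf2*, *Tcf7* and *Cd27* lie above 0, and *Gzmb*, *Prf1*, *Itgam* and *S1pr5* lie below 0.

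Homing and adhesion genes had a median log2 ratio of 0.02 over 19 measured members, with 2 at least 2-fold higher and none lower (background 4.6% and 4.24%). In the reduced set none of 17 was higher and 2 were lower by that size (background 3.67% and 2.27%). *Itga4*, the integrin chain that binds VCAM1 on endothelium, was at 645 CPM in control and 1010 CPM in Dnmt1iECKO NK cells (0.65, interval 0.49 to 0.81, reduced set 0.49). *Cd44*, the hyaluronan receptor, was at 146 and 305 CPM (1.06, interval 0.73 to 1.41, reduced set 0.93), with a UMI in 24.1% and 40.2% of thinned NK cells. *S1pr4*, a sphingosine phosphate receptor of lymphocytes, was lower at 93.0 and 50.2 CPM (-0.89, interval -1.41 to -0.37), and its ratio was -1.07 in the reduced set. *Ccr7* was at a log2 ratio of 3.32 in all NK cells but had 8 control and 1 Dnmt1iECKO UMIs in the reduced set, so that its higher level lay in the cells rich in class II genes.

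Cell cycle genes were lower in the Dnmt1iECKO NK cells, but a handful of cells carried them. Of 22 measured genes 15 were at least 2-fold lower and none higher, against 4.24% and 4.6% of all genes, with a median log2 ratio of -1.09, and in the reduced set 6 of 17 were lower (background 2.27%) with a median of -0.78. The median was -0.50 with at least 3 markers, -3.19 with markers read after thinning, -1.97 with the wider T cell exclusion and -0.058 without dividing cells. The last setting left out every cell with a UMI of *Mki67* or *Top2a*, which are cell cycle genes themselves. It kept 8 measured genes and is no independent check. Of 2385 control UMIs of the cell cycle genes 62.2% lay in 3 cells, and of 2728 Dnmt1iECKO UMIs 42.0% lay in 3 cells. The median NK cell held 8 and 7 of these UMIs. *Mki67*, the proliferation antigen, was at 253 and 121 CPM, in 7 of 56 and 19 of 172 cells. A UMI of *Mki67* or *Top2a*, the topoisomerase of dividing cells, was found in 13 of 56 (23.2%) control and 35 of 172 (20.3%) Dnmt1iECKO NK cells. After thinning these were 14.8% (6.62 to 27.1%) and 8.54% (4.75 to 13.9%), against 3.68% and 4.93% of endothelial cells. The log2 ratio of the thinned shares was -0.80, with an interval from -2.15 to 0.66, so a difference in the share of dividing cells was not detectable at this depth.

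The largest ratios over all NK cells came mostly from single cells. Among the 12 highest in the Dnmt1iECKO library, *Ccl6*, *Cxcl2*, *Lyz2* and *Spp1*, genes of myeloid cells, had 98.6%, 96.6%, 90.7% and 94.9% of their UMIs in 1 cell. *Agbl4*, a tubulin deglutamylase gene at chr4:110397661-111664324 that spans 6 smaller genes, was different. It had no UMI in control NK cells and 131 UMIs in 53 Dnmt1iECKO NK cells, with 9.16% in the highest cell. With 3 UMIs in place of 0 this was 16.9-fold higher, and 13.8-fold higher in the reduced set with 0 and 120 UMIs. The exact lower limits of the log2 ratio were 3.76 and 3.46. T cells did not share this pattern, with *Agbl4* at 17.5 CPM in control and 6.64 CPM in Dnmt1iECKO cells.

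In the reduced set, *Rmdn1*, *Cd27*, *Xcl1* and *Rbpj*, the nuclear effector of Notch, were among the 12 highest, with log2 ratios of 2.13, 2.12, 1.91 and 1.76. In all NK cells these were 1.44, 1.89, 1.51 and 0.11, and 71.4% of the control UMIs of *Rbpj* lay in 1 cell. In the reduced set the ratios rested on 4, 5, 33 and 8 control UMIs. Their intervals there were 0.69 to 4.06, 0.82 to 3.79, 1.39 to 2.47 and 0.72 to 3.03. *Dscam* had 0 and 56 UMIs there, but in only 5 cells. The 12 lowest of both sets shared 3 genes. *Rpl29*, a ribosomal protein gene, was at 905 CPM in control and 134 CPM in Dnmt1iECKO NK cells (log2 -2.75, reduced set -2.81). It was also lower in T cells (1200 and 269 CPM) and in endothelial cells (652 and 223 CPM), so it is not particular to NK cells. *Hsph1*, a heat shock protein gene, was at 103 and 28.9 CPM (-1.83), and it was also lower in T cells (103 and 48.2 CPM) and endothelial cells (79.0 and 51.7 CPM). *Tuba1b*, an alpha tubulin gene, was at log2 -1.83 in all NK cells and -1.79 in the reduced set. Its log2 ratio was 0.70 in T cells and 0.01 in endothelial cells. Over all control NK cells, 40.2% of its UMIs lay in 1 cell.

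*Dnmt1* itself, whose deletion the Cre directs to endothelium, was at 111 CPM in control NK cells (67 UMIs) and 87.5 CPM in Dnmt1iECKO NK cells (136 UMIs). The log2 ratio was -0.35 with an interval from -0.78 to 0.10, and 0.08 in the reduced set. In T cells it was at 77.2 and 109 CPM and in endothelial cells at 49.7 and 30.3 CPM. A 3′ count of this kind does not show whether the deleted exons were present, so it checks the labels only by level.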

How the data were processed

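Cells from tumors were profiled by the 10x GEM-X 3′ chemistry and processed by the authors with Cell Ranger 9.0.1 (file headers) against mm10 (processing notes of the submitters), and the deposited matrices hold raw UMI counts per gene and cell for 1 library of each condition. The 3′ protocol counts 1 UMI per captured molecule, so levels are not per length. Counts were summed over the NK cells of each library and scaled to a total of 1000000 (CPM). With 1 library per condition no test was made. Log2 ratios carry the exact conditional 95% interval of counts, CPM the Poisson interval and shares the Clopper-Pearson interval, all of which cover counting error only. A gene had to have 30 UMIs over both libraries to be compared, and a 2-fold ratio was counted as higher or lower. Shares of cells were read after thinning each cell to 2000 UMIs, which left out 2 control and 8 Dnmt1iECKO NK cells. T cells held *Ptprc* and *Cd3e* or *Cd3g* without *Cd79a* or *C1qa* (394 and 1602 cells), and endothelial cells held *Cdh5* and *Pecam1* without *Ptprc* (5188 and 2118 cells). Genes named by size were the 12 highest and 12 lowest ratios among genes with at least 50 UMIs, a UMI in at least 5 NK cells of the library where they were higher and a CPM there at least that of endothelial cells. Genes named against T cells were the 12 with the highest smaller log2 ratio of the 2 libraries among genes with at least 100 UMIs, leaving aside the genes of the rule, with 0.5 added to counts. Other genes are members of lists by role. The members and the lists were chosen with earlier results of these data known. Gene positions came from GENCODE vM21, in which 32158 of the 32285 gene IDs of the files were found. Doublets were kept, and an alternative removed the highest Scrublet scores at 0.4% per 1000 cells. Scripts were tested on simulated data. Python 3.11.15, numpy 2.4.6, scipy 1.17.1, pandas 2.3.3 and scanpy 1.11.5 were used. A few genes of the lists are not reported here.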

Additional observations from a re-analysis of the deposited data

Results flagged for a closer look

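For 8 flagged genes the ratio of the libraries was at least 2-fold in opposite directions in NK and in T cells. None of these differences was tested, since each condition had 1 library. The 8 are not all such genes. Among genes named by size, *Atad5* had log2 ratios of -1.95 in NK and 1.26 in T cells and *Knl1* of -1.89 and 1.00. *Agbl4* was higher in NK cells and at -1.40 in T cells. Of the cell cycle genes, the log2 ratio (Dnmt1iECKO over control) of *Top2a* was -1.64 in NK cells and 1.02 in T cells. *Stmn1* was at -1.01 in NK and 1.02 in T cells, *Pclaf* at -3.13 and 1.07, *Birc5* at -1.63 and 1.53 and *Tyms* at -2.61 and 1.26. The histone genes *Hist1h1b* and *Hist1h2ap* were at -1.09 and -1.09 in NK cells and at 2.08 and 1.48 in T cells. A single control NK cell held 53.1% of the control UMIs of *Top2a*, and a single Dnmt1iECKO NK cell held 73.0% of those of *Hist1h1b*. *Col1a2*, a collagen gene of fibroblasts, was at 3.09 in NK cells and -1.28 in T cells, but it had 4 control and 5 Dnmt1iECKO UMIs in the reduced set of NK cells, where its log2 ratio was -1.22.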

How the results depend on the processing

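No paired analysis was possible because each condition had 1 library, and for the same reason no replicate could be left out. The log2 ratio of the NK share of all cells lay between 1.49 and 1.67 under all alternatives, and that of the share of *Ptprc* cells between -0.18 and 0.02. The number of genes at least 2-fold higher was 611 without Scrublet doublets, 918 with a minimum of 10 UMIs, 91 with a minimum of 100 UMIs and 218 in the reduced set, against 363. The number at least 2-fold lower was 757, 77 and 135 under the last 3 of these, against 334. The reduced set was chosen after seeing the data. The median log2 ratio of the cytotoxic genes was -0.13 by mean CPM over single cells. That of the cell cycle genes was -0.50 with at least 3 markers, -3.19 with markers read after thinning, -1.97 with the wider T cell exclusion, -0.058 without dividing NK cells and -0.78 in the reduced set. The value without dividing NK cells rests on 8 genes, in cells chosen to lack *Mki67* and *Top2a*. The direction was followed for up to 202 single genes that met the UMI minimum under an alternative, and for 6 of them it reversed. *Ccr7* and *Col1a2*, below this minimum in the reduced set, had ratios below 0 there. *Spp1* was at -0.16 without *Gzma* among the markers. *Klri1* was at 0.019 with at least 3 markers, 1.68 without dividing cells, 0.045 in the reduced set and 0.31 by mean CPM. *Lilrb4a* was at -0.26 with at least 3 markers, -0.049 after thinning and -0.10 without dividing cells. *Itgae* was at 0.47 by mean CPM. *Ifngr2* was at 0.034 with at least 3 markers and 0.29 without dividing cells. *Cenpe* was at 0.86 with at least 3 markers and 0.95 in the reduced set. The cause was not tested. With 56 control NK cells, genes under about 30 UMIs and shares of a few percent could not be compared.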

Other observations

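Of 25 measured immediate early genes 2 were at least 2-fold higher and none lower, near the 4.6% and 4.24% of all genes, with a median log2 ratio of 0.39 in all NK cells and 0.29 in the reduced set. There 1 of 23 was higher and 1 lower by that size (background 3.67% and 2.27%), and the lowest log2 ratio was -3.12. *Fosb*, an AP-1 subunit, was at 83.1 CPM in control and 297 CPM in Dnmt1iECKO NK cells (1.84, interval 1.42 to 2.29, reduced set 1.74), against a log2 ratio of -0.69 in T cells. *Fos* was at 429 and 932 CPM (1.12), but its ratio was 0.11 in the reduced set. *Nr4a1*, an orphan nuclear receptor induced by receptor signals, was at 189 and 359 CPM (0.92, reduced set 0.47). Of 12 NF-kB feedback genes none differed by 2-fold (background 4.6% and 4.24%), with a median of 0.40, against -0.05 over all genes, and of 0.26 in the reduced set, where none differed by that size either (background 3.67% and 2.27%). *Nfkb1* was at 615 and 965 CPM (0.65, interval 0.49 to 0.82, reduced set 0.73) against -0.33 in T cells, and *Nfkbiz*, an inhibitor family member, at 251 and 417 CPM (0.73, reduced set 0.80).

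The median log2 ratio over 17 measured genes of metabolism was -0.07 in all NK cells, near the -0.05 of all genes, with 1 at least 2-fold higher and none lower (background 4.6% and 4.24%). In the reduced set it was -0.47 over 13 genes, with none higher and 1 lower (background 3.67% and 2.27%). Of the glycolytic members, chosen after their values were seen, *Gapdh* had a log2 ratio of -0.52 in all NK cells and -0.81 (-1.07 to -0.54) in the reduced set, *Tpi1* of -0.75 and -1.09 (-1.72 to -0.44) and *Eno1* of -0.40 and -0.80 (-1.27 to -0.33), while in T cells they were at 0.11, 0.17 and 0.18. Of 25 type I interferon response genes 4 were at least 2-fold higher and 1 lower (background 4.6% and 4.24%), with a median of 0.22 and of 0.39 in the reduced set. *Slfn8* was at 11.6 and 36.7 CPM (1.66, interval 0.52 to 3.03). Of 34 interferon gamma response genes 2 were at least 2-fold higher and 3 lower (background 4.6% and 4.24%), with a median of -0.14 and of 0.14 in the reduced set.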
